A study of Rattus norvegicus with 7 samples.

Results

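The genes described here are lipases expressed in the rat meibomian gland, an eyelid gland whose oily secretion covers the tear film, together with Abhd5, a co-activator of lipolysis. They were chosen by symbol from a list of 10 genes, and 9 of the 10 had values, among 17245 genes with values in both deposited tables. Pnpla2, which encodes adipose triglyceride lipase, was not analysed here. The list was drawn up with results of the comparison below known, so the differences of its members are a description. Where a member is said to be called, it passed the threshold used for all genes, and that call is not independent evidence. RNA sequencing had been done on glands of wild-type female Sprague-Dawley rats aged 3 months. There were 4 control libraries, labelled as having had no treatment, and 3 UVB libraries. In the UVB group the shaved upper eyelids had received ultraviolet B light at 300 mJ/cm2 in a 5 min session per day on 5 days before the glands were dissected. Whether the controls were shaved, whether a library came from 1 animal, and the time from the last exposure to dissection are not given in the sources used here, so p-values measure the spread between these libraries, which may be technical.

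Lipases cut the ester bonds that hold fatty acids on glycerol or sterols. Lipoprotein lipase (Lpl) and endothelial lipase (Lipg) work outside the cell, at vessel walls, on lipoprotein lipids. Inside cells, triglyceride of lipid droplets is broken down stepwise by adipose triglyceride lipase with its co-activator ABHD5, by hormone-sensitive lipase (Lipe) and by monoglyceride lipase (Mgll), while lysosomal acid lipase (Lipa) acts in the lysosome. Lipk, Lipm and Lipn belong to the acid lipase family of Lipa and are known from differentiating epidermis. Meibocytes, the lipid-filled cells of the gland, resemble sebocytes and release their lipid by disintegrating.

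By RefSeq's annotation of the GRCr8 assembly, Lipk, Lipn and Lipm lie next to each other in that order on chromosome 1, after the gastric lipase gene Lipf, and Lipa lies on the same chromosome. The 250 bases before the annotated start of Lipk and of Lipm are shown, because both genes, which flank Lipn, were lower in every UVB library than in any control, while Lipn was not. Both are on the plus strand of GRCr8, at chr1:240945851-240946100 for Lipk and chr1:241031132-241031381 for Lipm, from RefSeq. Capitals mark the match to TATAAA.
Lipk: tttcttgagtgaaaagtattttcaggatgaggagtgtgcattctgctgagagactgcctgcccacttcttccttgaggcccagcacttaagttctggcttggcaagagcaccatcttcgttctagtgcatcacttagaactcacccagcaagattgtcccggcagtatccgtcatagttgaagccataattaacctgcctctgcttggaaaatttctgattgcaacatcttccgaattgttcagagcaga
Lipm: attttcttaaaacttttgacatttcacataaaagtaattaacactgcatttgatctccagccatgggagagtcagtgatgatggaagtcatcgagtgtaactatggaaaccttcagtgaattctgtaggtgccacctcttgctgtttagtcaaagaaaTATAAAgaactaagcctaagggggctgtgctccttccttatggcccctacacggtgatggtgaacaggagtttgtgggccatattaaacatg

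Searched on both strands, the Lipm stretch held TATAAA, starting 92 bases before the start, letters that 12.9% of 33469 RefSeq stretches of the same length held, and the E-box pattern CANNTG, which 65.5% held. The Lipk stretch held neither, nor CCAAT (34.0% of all), TGANTCA of AP-1 (6.34%), GGGCGG (30.5%) or AGGTCA (14.1%); nothing about a factor follows from that. Entries were matched for 6 of the 9 members. CCAAT was found before Lipa, Mgll and Lipg, GGGCGG before Mgll and Abhd5, and AGGTCA, in its reverse form, before Abhd5. Lpl, Lipn and Lipe were not matched.

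Library totals ran from 20680237 to 28784941 counts. Meibocyte markers were abundant, with the desaturase gene Scd at a mean of 27692 TPM (a transcript level corrected for length and library total) and the wax synthase gene Awat2 at 11610 TPM in controls, and markers of skeletal muscle and epidermis were present too. Counts of Scd were not whole in any library, so its level is uncertain. Across the transcriptome, edgeR's quasi-likelihood test with Benjamini-Hochberg adjustment called 1787 of 13709 genes at an adjusted p under 0.05, or 13.0% (6.30% higher and 6.74% lower after UVB). That count rested in part on single libraries, and ran from 851 without control c to 1898 without control a; it was 943 without control d, 1047 without UVB b, 1097 without control b and 1168 without UVB c.

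Per transcript length, 3 of the 9 genes made up nearly all of the summed level of these 9. Mgll averaged 632 TPM in controls (605 to 652), Abhd5 491 TPM (435 to 537) and Lipm 420.0 TPM (390 to 435), placing them 190th, 243rd and 288th among the genes by mean control level. Over the libraries, the TPM of all genes with values summed to 82.0% to 84.1% of a full total. Places, here and below, are therefore among those genes only. Together they made up 97.4% ± 0.290 (SD, n = 4) of the summed TPM of the 9 genes in controls; after UVB the share was 95.7% ± 0.540 (SD, n = 3). The ranges of these 3 over the 4 controls did not overlap.

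The remaining 6 were far lower, starting 29.3-fold below Lipm with Lpl at a mean of 14.3 TPM (12.9 to 17.7). Lipa followed at 10.3 TPM (9.68 to 11.9) and Lipe at 8.44 TPM (7.12 to 9.40), then Lipg at 4.45 TPM (3.72 to 5.73). Lipk averaged 2.90 TPM (2.06 to 3.79) and Lipn 0.863 TPM (0.56 to 1.27). Lipg and Lipk were the only neighbours in this order whose control ranges overlapped, and each of the 4 control libraries gave the same order of all 9 genes.

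**Figure D1:**
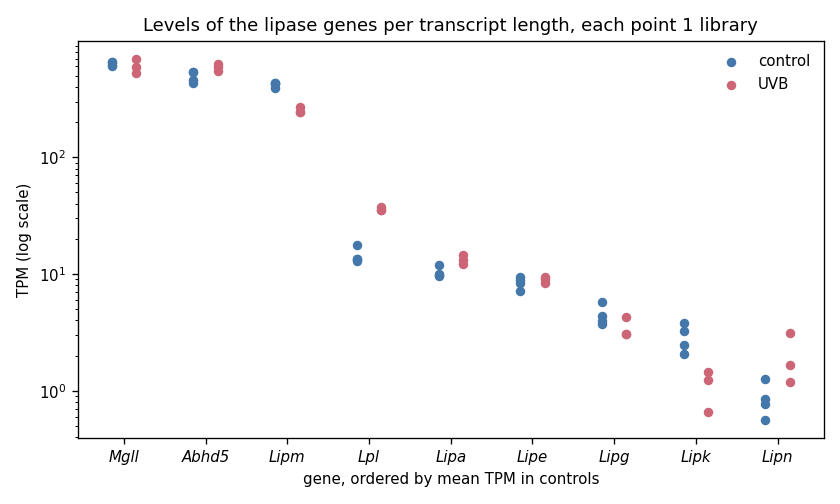
TPM on a log axis for the 9 genes in each of the 4 control (blue) and 3 UVB (red) libraries, ordered by the control mean. Mgll, Abhd5 and Lipm sit above 200 TPM in every library, Lpl between 12.9 and 37.7 TPM, and Lipn lowest in the controls.

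After UVB the order of the means was the same except that Lipn, at 1.99 TPM, stood above Lipk, at 1.11 TPM. Those neighbours overlapped over the 3 UVB libraries, as did Mgll with Abhd5 and Lipg with Lipn. The summed TPM of the 9 genes had a control mean of 1584 ± 64.0 (SD, n = 4) and a UVB mean of 1517 ± 120 (SD, n = 3), with overlapping ranges of 1520 to 1655 and 1388 to 1627. Within that sum the share of Lipm went from 26.5% ± 1.18 to 16.7% ± 0.755, and that of Abhd5 from 30.9% ± 2.10 to 39.2% ± 2.32 (SD, n = 4 and 3). The share of Lpl went from 0.909% ± 0.165 to 2.40% ± 0.286. In each of these 3 shares the groups did not overlap, while the shares of Mgll did (38.3% to 42.9% in controls, 37.9% to 42.9% after UVB). The groups were also apart for Lipa (0.597% to 0.785%, then 0.818% to 0.948%) and Lipk (0.127% to 0.229%, then 0.0430% to 0.104%). They overlapped for Lipn, Lipe and Lipg. Shares of the same sum are not independent, since a fall in any of them raises the others.

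The comparison of UVB with control libraries asked how each lipase transcript differs in the irradiated gland. All 9 genes passed the filter on low counts. Of them 3 had an adjusted p under 0.05 over all genes, Lpl higher and Lipm and Lipk lower, beside 13.0% of all genes. The groups did not overlap for 5, with Lpl, Lipa and Abhd5 higher and Lipm and Lipk lower, beside 26.6% of all genes (12.8% higher and 13.8% lower). The median log2 fold change was 0.068 over the members and -0.0058 over all genes tested. Since the list was chosen with this comparison known, nothing is read from these counts. Lipk was not called in 2 of the 7 fits that left out 1 library, those without control d (log2 fold change -1.23) and without UVB b (-1.12).

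Of the lipases that act outside the cell, Lpl showed the larger difference. In CPM (counts scaled to library size with TMM factors), it measured 29.3, 30.1, 38.7 and 30.1 in controls a to d and 77.5, 79.7 and 84.1 in UVB libraries a to c. The lowest UVB library was above the highest control, and the UVB libraries lay close together. Its log2 fold change was 1.33 (SE 0.099), or 2.51-fold higher, and ran from 1.29 to 1.43 when any 1 library was left out. By mean TPM it moved from 6932nd to 3753rd place among the genes. The endothelial lipase gene Lipg measured 4.43, 4.71, 5.00 and 6.79 CPM in controls and 3.56, 3.64 and 5.01 CPM after UVB. The groups overlapped, through UVB c and the lower controls. The log2 fold change of Lipg was -0.36 (SE 0.20), and was -0.54 without UVB c and -0.21 without control d.

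In a gland piece, more cells of a type and more RNA per cell cannot be told apart, and markers of several other cell types also moved. Counts of called markers, here and below, stand beside 13.0% of all genes called by edgeR (6.30% higher and 6.74% lower). Those of DESeq2 stand beside its 2451 calls among 13709 genes. Of the macrophage markers, 4 of 9 tested were called higher and 0 lower, with summed levels of 177 to 499 TPM in controls and 207 to 347 TPM after UVB. The scavenger receptor gene Cd163 (log2 fold change 3.50, SE 0.40, edgeR adjusted p = 0.00402) and the complement gene C1qb (1.29, SE 0.21, adjusted p = 0.00833) led them, with Mrc1 (1.75) and C1qc (0.93). The markers without a call went both ways: Lyz2 (-0.77), Cd68 (-0.41), Csf1r (-0.0093), Adgre1 (0.11) and C1qa (0.85). The calls of Mrc1 and C1qc were each lost in 5 of the 7 fits without 1 library, those without control a, c or d or UVB a or c; without control a, 1 marker of the list was called lower. Of the endothelial markers 4 of 8 were called higher and 0 lower, and their sum was 141 to 154 TPM in controls and 200.4 to 219 TPM after UVB, without overlap. Those called were the fenestra gene Plvap (0.69), Vwf (0.79), Esam (0.61) and Cdh5 (0.36). The call of Cdh5 was lost without control a, b or c or UVB a or c (edgeR adjusted p up to 0.0980). Much of the endothelial sum was Plvap, at a mean of 71.0 TPM in controls and 116 TPM after UVB. Without a call were Kdr (0.46), Egfl7 (0.38), Tek (0.24) and Emcn (-0.20). At an unadjusted p under 0.05, 0 macrophage and 0 endothelial markers were lower in edgeR with all libraries. At the same unadjusted p, DESeq2 had 1 macrophage and 0 endothelial markers lower. After adjustment DESeq2 called 0 lower in both lists.

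Markers of adipocytes and muscle, known sources of Lpl, were described in the same way. Of the adipocyte markers 0 of 7 tested were called higher and 2 lower, Plin4 (-0.44, adjusted p = 0.0133) and Cidec (-2.08, adjusted p = 0.0370), with summed levels of 122 to 192 TPM in controls and 113 to 139 TPM after UVB; 1 was higher at an unadjusted p under 0.05, and DESeq2 called 0 higher and 4 lower. Cidec was called in only 1 of the 7 fits without 1 library, that without control d. Plin4 did not vary over the controls as the other tested adipocyte markers did. Control c was the highest control for each of those, among them Adipoq (12.6 CPM), Plin1 (4.35 CPM) and Cidec (4.55 CPM). Plin4 measured 115.1 CPM in control c, below 115.9 CPM in control a and 119.9 CPM in control d. Whether the call of Plin4 follows adipocytes was not tested. Of 7 skeletal muscle markers edgeR called 0, also at an unadjusted p under 0.05, and DESeq2 0 (2 lower at an unadjusted p under 0.05); their sums were 2447 to 3454 TPM and 1653 to 3001 TPM. Of the fibroblast markers 3 of 9 were called higher and 1 lower, with sums of 1042 to 1600 and 1329 to 2098 TPM. Those higher were Lum (1.95), Dcn (0.95) and Pdgfra (0.91), and that lower was Pi16 (-0.68). The calls of Dcn and Pi16 were each lost in 5 of the 7 fits. Fibroblast markers without a call were Fbln1 (0.46), Dpt (0.25), Col3a1 (0.019), Mfap5 (-0.075) and Col1a1 (-0.48). No marker of these lists was at or under 3 counts in every library. The part of these cells in the difference of Lpl was not tested.

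**Figure D2:**
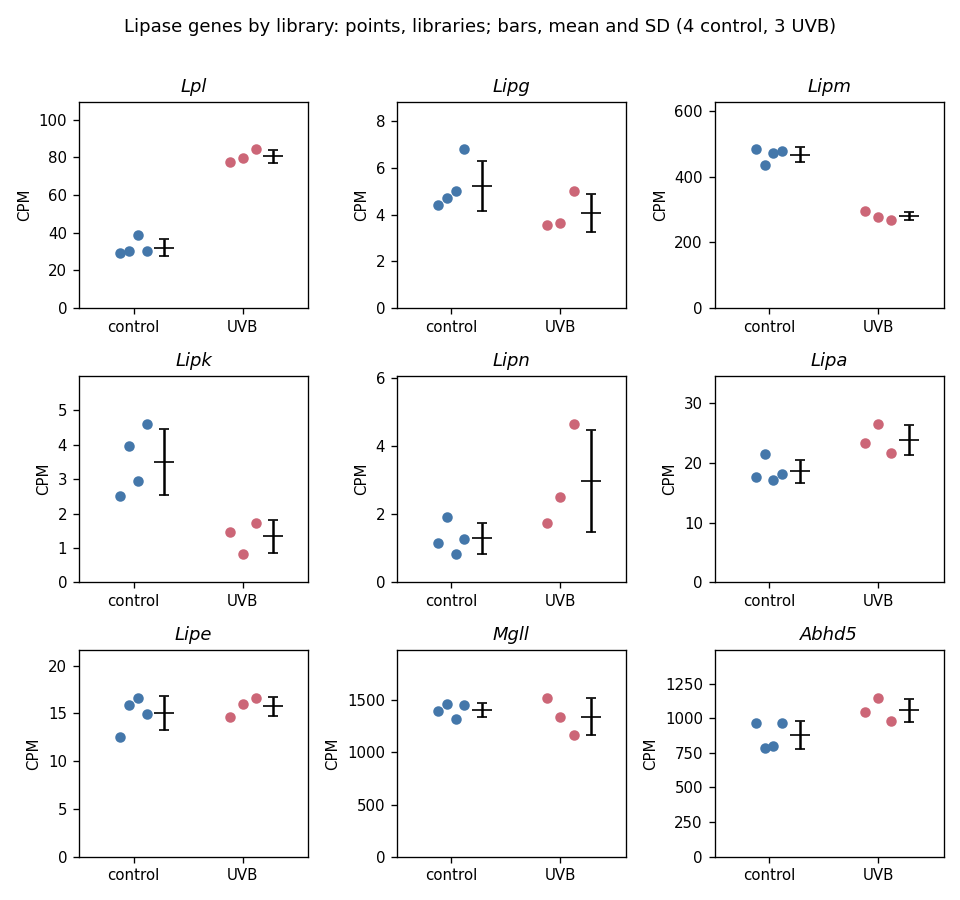
CPM of each of the 9 genes in the 4 control (blue) and 3 UVB (red) libraries, on separate axes that start at 0; black bars are the mean and SD. Lpl, Lipm and Lipk show no overlap between groups, while Mgll, Lipe, Lipg and Lipn do overlap.

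The 3 neighbouring epidermal-type lipases did not move together. Lipm, the most abundant of them, measured 483, 435, 473 and 478 CPM in controls a to d and 294, 277 and 269 CPM in UVB libraries a to c. Every UVB library was well below every control. On the log2 scale Lipm differed by -0.74 (SE 0.067), or 1.67-fold lower, with values from -0.77 to -0.71 when any 1 library was left out. By mean TPM it moved from 288th to 528th place.

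Lipk was scarce and also lower. It had 54, 85, 85 and 108 counts in the controls and 31, 21 and 45 counts after UVB, or 2.52, 3.97, 2.93 and 4.62 CPM against 1.47, 0.813 and 1.73 CPM. The groups did not overlap, with UVB b lowest. Its log2 fold change was -1.39 (SE 0.31), or 2.62-fold lower, and was -0.88 on the log2(TPM + 1) scale, which understates changes of low genes.

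Lipn went the other way, without a call. It had 25, 41, 24 and 30 counts in controls and 37, 65 and 121 counts after UVB, or 1.17, 1.91, 0.828 and 1.28 CPM against 1.75, 2.52 and 4.66 CPM. UVB a lay below control b, and UVB c was far above the rest. For Lipn the log2 fold change was 1.22 (SE 0.38), and 0.74 without UVB c. Taken within each library, the ratio of Lipn to Lipk in TPM was 0.224 to 0.388 in controls and 0.960 to 2.50 after UVB. Lipf, the gene before Lipk, had 0 counts in every library, which allows up to 0.145 CPM of the total in the shallowest, a limit that covers counting error only.

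Markers of the tissues where these lipases are known moved unequally. Of the upper epidermis markers 0 of 8 tested were called higher and 2 lower, the suprabasal protein gene Sbsn (-0.53, SE 0.097, edgeR adjusted p = 0.0107) and the keratin gene Krt2 (-1.21, SE 0.28, adjusted p = 0.0231). Krt2 was not called without control c or d or UVB b or c (up to 0.0747); 1 marker was higher at an unadjusted p under 0.05 in edgeR, and DESeq2 called 1 higher. The summed level of that list was 3014 to 3631 TPM in controls and 2899 to 4393 TPM after UVB. Its markers without a call went both ways: Krt1 (0.39), Krt10 (0.070), Kprp (-0.069), Lor (-0.23), Casp14 (-0.37) and Ivl (-1.32). Of the meibocyte markers 3 of 11 were called lower and 1 higher, and their sum was 43683 to 52762 TPM in controls and 39566 to 46078 TPM after UVB, with overlap. Those lower were Awat2 (-0.66), the droplet coat gene Plin2 (-0.45) and Awat1 (-0.33), and that higher was Fa2h (0.75); Awat1 and Fa2h were each lost in 6 of the 7 fits without 1 library (adjusted p up to 0.115 and 0.0915), Awat1 keeping its call without control b alone and Fa2h without UVB b alone. The meibocyte markers without a call also went both ways: Mc5r (0.82), Pparg (0.22), Soat1 (0.10), Scd (-0.040), Far2 (-0.13), Dgat2 (-0.16) and Elovl4 (-0.24). Much of the meibocyte sum was Scd, at a mean of 27692 TPM in controls and 27033 TPM after UVB. The part of these cells in the differences of Lipm, Lipk and Lipn was not tested.

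Among the intracellular lipases, Lipa, which frees cholesterol and fatty acids in the lysosome, measured 17.6, 21.5, 17.1 and 18.1 CPM in controls and 23.4, 26.6 and 21.6 CPM after UVB. The groups were apart by little, since control b nearly reached UVB c. Lipa had a log2 fold change of 0.36 (SE 0.11), without a call, and 0.44 without control b, with a call. Abhd5, whose protein switches on adipose triglyceride lipase, measured 967, 783, 800.5 and 967 CPM in controls and 1045, 1147 and 982 CPM after UVB. The groups did not overlap, but UVB c was close to controls a and d. For Abhd5 the log2 fold change was 0.27 (SE 0.10), with no call.

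Lipe and Mgll, the enzymes that act on diglyceride and monoglyceride, showed the smallest differences. Lipe measured 12.6, 15.9, 16.6 and 14.96 CPM in controls and 14.6, 16.0 and 16.6 CPM after UVB, so that the UVB values lay inside the control range. Its log2 fold change was 0.068 (SE 0.11). Its counts were not whole in 2 libraries, and in GRCr8 it overlaps a non-coding gene, so part of its reads may be shared. Mgll measured 1403, 1462, 1321 and 1461 CPM in controls and 1525, 1336 and 1171 CPM after UVB. Its UVB libraries spread to both sides of the controls. Its log2 fold change was -0.071 (SE 0.097), and the sign changed without UVB c (0.020), as that of Lipe did without control a (-0.0052).

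**Figure D3:**
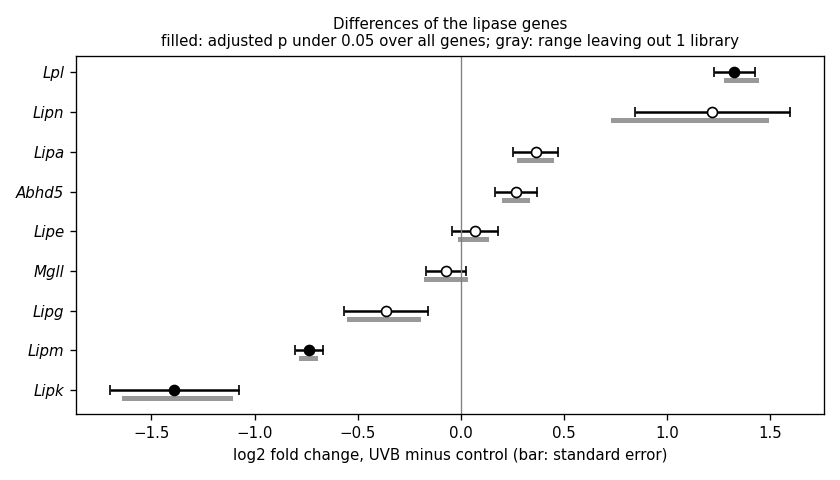
Log2 fold change of each gene, UVB minus control, with its standard error; filled points have an adjusted p under 0.05 over all genes and gray bars span the 7 fits that each left out 1 library. Lpl, at 1.33, and Lipm, at -0.74, have narrow gray bars, and that of Lipn runs from 0.74 to 1.48.

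Genes with a pattern most like that of Lpl and Lipm were sought over the 7 libraries, by the root mean square distance of log2 CPM after centring each gene, among 11965 genes with a mean count of at least 50. Nearest to Lpl were Ptgs1, which encodes cyclooxygenase 1 (distance 0.095 on the log2 scale), Vat1l (0.13) and Bcl3, a co-regulator of NF-kB (0.14). Nearest to Lipm were Awat2 (0.052), the secreted growth factor gene Clec11a (0.052) and the plasma membrane calcium pump gene Atp2b4 (0.069). These are descriptions of 7 libraries, and likeness to genes chosen for their difference includes that difference.

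Other genes of the same pathways were then described by lists set out by role. The count of each list stands beside 13.0% of all genes called by edgeR (6.30% higher and 6.74% lower). Since the lists were written with earlier results known, nothing is read from these counts. Group values are mean ± SD over 4 control and 3 UVB libraries, followed by the log2 fold change and edgeR's adjusted p. For the partners that mature, anchor or inhibit lipoprotein lipase, 17 of 20 listed genes had values and 12 were tested, of which 1 was called higher and 3 lower. Their median log2 fold change was -0.023. The proprotein convertase gene Pcsk5 rose from 3.09 ± 0.677 to 10.4 ± 3.84 CPM (1.75, SE 0.26, adjusted p = 0.00605). The lipoprotein receptor gene Vldlr fell from 47.8 ± 4.23 to 28.4 ± 5.87 CPM (-0.75, SE 0.13, adjusted p = 0.00974). The convertase gene Pcsk6 (-0.57, SE 0.14, adjusted p = 0.0309) and the proteoglycan gene Sdc1 (-0.34, SE 0.072, adjusted p = 0.0181) also fell. Pcsk6 was not called when control b, c or d or UVB b was absent (up to 0.0809) and Sdc1 without control c or d or UVB c (up to 0.0636), and the list's count was 2 without control c and 2 without control d. Angptl4, which encodes an inhibitor of the enzyme, went from 23.8 ± 4.83 to 30.04 ± 3.95 CPM without a call (0.34, SE 0.17, adjusted p = 0.216), and Lmf1, needed for its folding, had 0.29 (SE 0.12, adjusted p = 0.135). Apoe was the most abundant of the list at 5917 TPM in controls (-0.30, adjusted p = 0.157; 0.0401 without control a). The activator gene Apoc2 and the inhibitor gene Apoc3 had at most 3 counts in any library; Gpihbp1, the anchor in capillaries, was not analysed here.

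Of 15 genes with values for fatty acid uptake and activation, 14 were tested, and 3 were called higher and 1 lower, with a median of -0.043. The transporter gene Slc27a4 rose from 209 ± 8.39 to 303 ± 25.2 CPM (0.54, SE 0.071, adjusted p = 0.00348). The fatty acid binding protein gene Fabp5, at 3023 TPM the highest of the list in controls, rose by 0.54 (SE 0.11, adjusted p = 0.0129), and the acyl-CoA synthetase gene Acsl5 by 0.41 (SE 0.070, adjusted p = 0.00786). Counts of Acsl5 were not whole in any library, so its level is uncertain. Slc27a1 fell (-0.28, SE 0.063, adjusted p = 0.0214), but not past the threshold without control c or d or UVB a or c (up to 0.0629). Acsbg1, the second most abundant at 769 TPM, was -0.30 (adjusted p = 0.127).

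Of 22 genes with values that control droplet lipolysis or handle glycerol, 19 were tested, and 1 was called higher and 5 lower, with a median of -0.044. Droplet coat and fusion genes made up 4 of the 5. Plin2 fell from 1675 ± 82.4 to 1227 ± 62.3 CPM (-0.45, SE 0.077, adjusted p = 0.00826). Cidea, the most abundant of the list at 2405 TPM, fell by 0.50 on the log2 scale (SE 0.085, adjusted p = 0.00823), and Plin4 and Cidec fell as given above. G0s2, which encodes an inhibitor of adipose triglyceride lipase, rose from 29.96 ± 4.47 to 42.8 ± 5.45 CPM (0.51, SE 0.13, adjusted p = 0.0330), and not past the threshold without control a or c or UVB a or b (up to 0.0999). Without UVB b the list had 3 calls.

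Of 20 other glyceride and ester hydrolases with values, 18 were tested, and 1 was called higher and 3 lower, with a median of -0.0083. The patatin-like lipase gene Pnpla5 rose from 6.09 ± 2.67 to 30.4 ± 14.8 CPM (2.33, SE 0.41, adjusted p = 0.0143). Faah, the amide hydrolase of endocannabinoids, fell from 37.9 ± 5.64 to 24.8 ± 1.99 CPM (-0.61, SE 0.12, adjusted p = 0.0117). The carboxylesterase genes Ces2c (-0.52, SE 0.098, adjusted p = 0.0115) and Ces1d (-1.02, SE 0.26, adjusted p = 0.0313) also fell. Their counts were not whole in 3 and 5 libraries, so reads may be shared within that gene family, and Ces1d kept its call in only 1 of the 7 fits without 1 library, that without control a. The most abundant of the list, Aadac at 589 TPM (0.27, adjusted p = 0.182) and Pnpla3 at 97.9 TPM (-0.13, adjusted p = 0.552), had no call, and the sign of Pnpla3 changed without UVB c (0.013).

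Of 19 genes for lysosomal lipid breakdown and export, the compartment of Lipa, 19 were tested, and 2 were called higher and 2 lower, with a median of 0.087. Npc2, whose protein hands cholesterol freed by acid lipase to the lysosomal membrane, rose from 59.0 ± 9.86 to 81.6 ± 4.25 CPM (0.47, SE 0.12, adjusted p = 0.0327). The galactosidase gene Gla rose by 0.42 (SE 0.095, adjusted p = 0.0221), and Hexa, which encodes a subunit of a ganglioside-degrading enzyme, fell (-0.39, SE 0.085, adjusted p = 0.0198). Each of these 3 genes lost its call in 4 or 5 of the 7 fits without 1 library, and edgeR called 0 of the list without control c and 0 without control d, where 6 had an unadjusted p under 0.05 in either fit. The list had 2 calls without UVB a, 1 without UVB b and 2 without UVB c. The protease gene Ctsd, at 1067 TPM the highest of the list (0.23, adjusted p = 0.142), and Lamp1 at 656 TPM (-0.018, adjusted p = 0.944) had no call; the sign of Lamp1 changed without control a (0.039), control c (0.025) or UVB c (0.11).

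**Figure D4:**
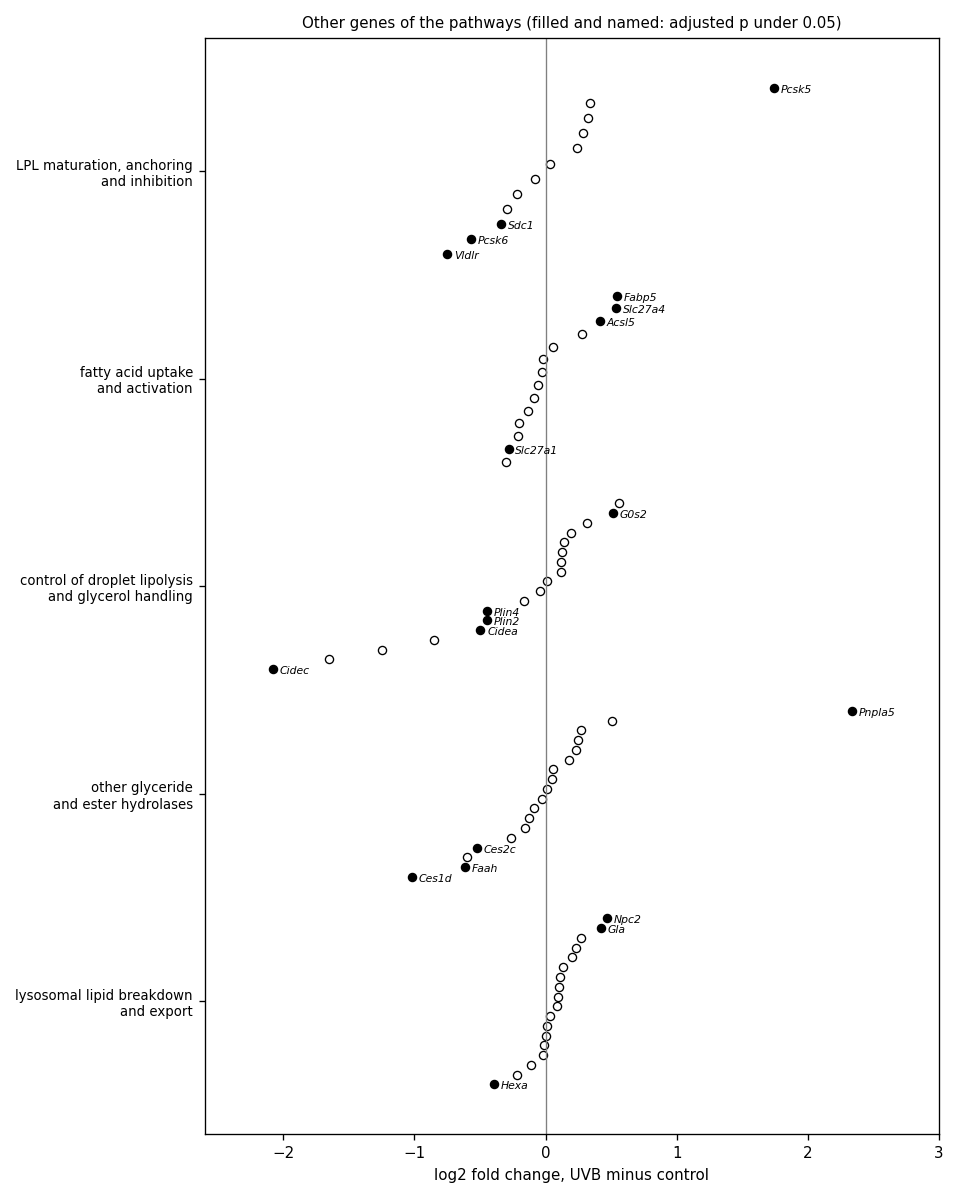
Log2 fold change, UVB minus control, of tested genes of 5 pathway lists, without genes not reported here, each point 1 gene, sorted within a list; filled and named points have an adjusted p under 0.05 over all genes. In each list called genes stand on both sides of 0, with Pnpla5 at 2.33 and Cidec at -2.08 farthest out.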

How the data were processed

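Expected counts (12.5% of values not whole) and TPM were deposited by the authors in separate tables, per the file headers. Per the submitters' processing notes FastQC, Trimmomatic, DRAGEN, Picard and the build rn7 were used; the counting program, annotation and strand handling are not given in the sources used here. Gene names with unquoted commas shift cells, and the right-hand 7 cells of a row were taken; 5 rows per table were left out. Columns name the group but no label's replicate number, so libraries carry letters that pair nothing.

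Counts were rounded and tested in edgeR 4.0.16 (R 4.3.3): TMM, filterByExpr, robust quasi-likelihood, two-sided, Benjamini-Hochberg over 13709 genes. The design was written for counts, and the test was kept with rounding. SE is the size of the log2 fold change over the root of F. The test was also tried on simulated counts in which every gene had the same spread beyond counting noise. That setting is simpler than these data, so nothing about the members is read from it. Alternatives used DESeq2 1.42.0, limma 3.58.1 on log2(TPM + 1) or log2(TPM + 0.1), other scaling and filters, and each library left out in turn.

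Members and lists were chosen with earlier results of these data known. Named genes were every member, from each pathway list the called genes (at most 6) and the 2 highest in controls, the called cell type markers (at most 4) and the 3 genes nearest in pattern to Lpl and to Lipm. Angptl4, Lmf1, Lipf and the named cell type markers without a call were added after their values were seen. No pair of libraries within a group agreed within sampling noise (chi-square per degree of freedom at least 10.5). Some genes of the pathway lists are included in the counts but not reported here by name.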

Additional observations from a re-analysis of the deposited data

Results flagged for a closer look

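Of 31 sets of 4 control values examined (TPM and CPM of the members, and summed TPM of lists and members), 3 held a library that stood far from its group; about 1 in 20 would by chance. For Lpl it was control c, at 38.7 CPM where the others lay between 29.3 and 30.1 CPM, so that the gap was 0.914 of the whole range. In TPM the same library stood at 17.7 beside 12.9 to 13.4, a gap share of 0.906. The log2 fold change of Lpl was 1.43 when control c was left out. Control c was also the highest control for the adipocyte markers Adipoq (12.6 CPM), Plin1 (4.35 CPM) and Cidec (4.55 CPM), but not for Plin4. A link of these values to Lpl was not tested. For Lipa it was control b, at 11.9 TPM beside 9.68 to 9.99 TPM, with a gap share of 0.862. In CPM, the scale nearer to its fold change, no library was flagged for Lipa. Leaving control b out gave Lipa a log2 fold change of 0.44, past the threshold. Lipa was not called in any other fit that left out 1 library (edgeR adjusted p 0.0571 to 0.169).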

How the results depend on the processing

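No paired analysis was possible because column names give a library's group alone. Over 15 alternatives the log2 fold change ran from 1.28 to 1.43 for Lpl and from -0.77 to -0.71 for Lipm. DESeq2 called 5 members, adding Lipn (1.22) and Lipa (0.37), beside 2451 of 13709 genes. Over the 15 alternatives 2 to 5 members were called, while all genes called ran from 851 to 2451, beside 1787 in edgeR with all libraries. The number of genes tested differed between alternatives, and nothing is read from the count of members. Leaving out 1 library, 2 to 4 members were called; Lipk ran from -1.63 to -1.12, Lipn from 0.74 to 1.48, Lipa from 0.28 to 0.44, Lipe from -0.0052 to 0.12 and Mgll from -0.17 to 0.020. In the same fits all genes called ran from 851 to 1898 (421 to 927 higher, 430 to 971 lower), and calls ran from 2 to 6 for lipoprotein lipase partners, 3 to 6 for droplet lipolysis and 0 to 4 for lysosomal genes; Pnpla3 ran from -0.29 to 0.013 and Lamp1 from -0.11 to 0.11. Under log2(TPM + 1) without a filter 571 genes were lower and 1 lysosomal gene was called; the cause was not tested. The order of the members by TPM was the same in each control. Low counts limit Lipk and Lipn.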
